A study of Homo sapiens with 4 samples.

Results

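The clustered protocadherin genes lie side by side on the long arm of chromosome 5, in the PCDHA, PCDHB and PCDHG clusters. Their place in the folded chromosome was read from Hi-C contact maps of IMR90, diploid fibroblasts from human lung. The bins of the deposited bin list that overlap 140.1 to 140.9 Mb of chromosome 5 in hg19 (the GRCh37 assembly) were taken, with 10 bins on each side. This gave 25 bins of about 200 kb, of 892 bins on chromosome 5 and 14444 in the list. 5 of the 25 overlap the interval and are called protocadherin bins 1 to 5, and the others are called upstream 1 to 10 and downstream 1 to 10, counted outwards.

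Protocadherins are cadherin-like proteins of the cell surface that bind each other between cells, best known from neurons. In the PCDHA and PCDHG clusters each gene begins with its own variable first exon and shares its last exons with the rest of its cluster, whereas PCDHB genes consist of a single exon. A neuron switches on a few promoters of each cluster, which meet distant enhancers through loops held by CTCF and cohesin. Chromosomes also fold on a larger scale into an active A and an inactive B compartment, each in contact mainly with itself. RNA was not measured in these maps, so nothing below says which of the genes were transcribed.

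The study asked how HMGA1, a chromatin protein that binds AT-rich DNA, affects the folding of the genome in oncogene-induced senescence (OIS). 4 samples were labelled, 2 of Grow-shA1 and 2 of OIS-shA1. All carried an ER:HRAS G12V fusion in pLNCX2 and a short hairpin against HMGA1 (pMSCV miR shHMGA1), and the OIS-shA1 samples (RIS in the labels) were treated with 100 nM 4OHT for 6 days, which switches on the RAS fusion. The Grow and OIS maps, without the hairpin, were made earlier by the same laboratory and have no sample here. The replicates of a condition were pooled into 1 map, so the spread between replicates is unknown and no test was possible. Any effect of shA1 cannot be told apart from a difference between the earlier and the later data set, except in the interaction, the difference between both RAS effects, where a constant offset cancels. The 4 maps listed between 4032189 (OIS-shA1) and 4631800 (Grow) pairs of bins, and the reads behind a pair are unknown.

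Every value is a contact score of 2 bins on the same chromosome, given relative to the mean contact at that distance, so that lower values stand for fewer contacts. At short range 0 was not the typical score. Over the genome neighbouring bins had a median of 0.71 in Grow and 0.66 in OIS, and bins 4 positions apart had 0.0043 in Grow. The score behaves like a logarithm whose base is not stated, and differences are in score units. RAS induction was read from OIS minus Grow and from OIS-shA1 minus Grow-shA1, and the hairpin from OIS-shA1 minus OIS and Grow-shA1 minus Grow. The interaction is the second RAS difference minus the first. A bin was called where its mean score differed by at least 0.2 between maps, and the share of all bins called the same way is given as background.

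The 5 bins hold the starts of 53 clustered protocadherin genes, 15 PCDHA, 16 PCDHB and 22 PCDHG. 14 other protein-coding genes also start in them. Protocadherin bin 1 (chr5:140002263-140197661) has PCDHA1 to PCDHA4 at its far end and 9 other genes, among them CD14, a receptor for bacterial lipopolysaccharide, NDUFA2, a subunit of mitochondrial complex I, and WDR55. Bin 2 (chr5:140197662-140400863) has the other 11 PCDHA genes, bin 3 (chr5:140400864-140601917) has 14 PCDHB genes and no other gene, and bin 4 (chr5:140601918-140803768) has the last 2 PCDHB and the first 18 PCDHG genes. Bin 5 (chr5:140803769-141001348) has the last 4 PCDHG genes and DIAPH1, a formin that nucleates actin filaments. Bins 2, 3 and 4 lie wholly within the cluster and are called the 3 inner bins. The cluster covers 16.4% of bin 1 and 44.9% of bin 5, the 2 edge bins.

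The named genes PCDHA1 (ENSG00000204970, chr5:140165721-140391932) and PCDHGC5 (ENSG00000240764, chr5:140868648-140892542) start in bins 1 and 5. PCDHAC2 (ENSG00000243232, chr5:140346055-140391932) starts in bin 2 and PCDHB1 (ENSG00000171815, chr5:140430959-140438931) in bin 3. PCDHB15 (ENSG00000113248, chr5:140624963-140628933) and PCDHGA1 (ENSG00000204956, chr5:140710081-140892542) start in bin 4. All 6 are on the plus strand, and at this bin size genes of 1 bin share every value below.

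The borders between the bins are HindIII sites, since this enzyme cut the chromatin. They are shown because they set which genes share a bin, and so a value. At this bin size no change of contact can be placed at a site. Each is given with 12 bases on each side from GRCh37, plus strand, and the site is in capitals.
Border of bins 1 and 2, chr5:140197649-140197678: ttgcagttttcaAAGCTTcttatatctgtg
Border of bins 2 and 3, chr5:140400851-140400880: gaaggattttctAAGCTTaaaggcaataaa
Border of bins 3 and 4, chr5:140601905-140601934: attacctcaggaAAGCTTtcactgatgtcc
Border of bins 4 and 5, chr5:140803756-140803785: acttatacacgtAAGCTTttctctgagcaa

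HMGA1 holds AT-hooks that bind runs of A and T, so the longest such run of bins 3, 4 and 5 is shown in capitals with 10 bases on each side. The run of bin 3 lies between genes, that of bin 4 in an intron of TAF7 and that of bin 5 in the introns of 19 PCDHG genes. The longest run of bin 2, of 57 bases, overlaps an exon of PCDHA5 and is not shown.
Bin 3, run of 50 bases, chr5:140409019-140409088: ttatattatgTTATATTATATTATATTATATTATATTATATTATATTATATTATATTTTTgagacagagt
Bin 4, run of 41 bases, chr5:140664240-140664300: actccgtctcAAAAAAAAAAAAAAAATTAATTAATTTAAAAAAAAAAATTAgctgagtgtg
Bin 5, run of 60 bases, chr5:140835413-140835492: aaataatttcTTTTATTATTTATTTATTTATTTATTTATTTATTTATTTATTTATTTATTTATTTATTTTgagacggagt
Runs of at least 10 A or T bases make up 4.92%, 5.86%, 6.49%, 4.48% and 4.79% of bins 1 to 5, against a median of 5.54% over the 861 kept bins of chromosome 5. The GC content of bins 2 and 3 was 39.9% and 39.4%, the lowest of the 5 bins, and that of the other 3 was between 42.9% and 43.3%. On the share in such runs the 5 bins lay between the 24.4th and the 72.8th percentile of chromosome 5, so the cluster was not rich in them.

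The protocadherin cluster was an island of B compartment in an A neighbourhood in all 4 maps. The compartment score is the loading of a bin on the first principal component of chromosome 5, scaled to an SD of 1, and positive values are A. In Grow it was -0.53, -1.35, -1.34, -1.0 and 0.43 in bins 1 to 5. In Grow-shA1 it was -0.45, -1.43, -1.43, -1.21 and 0.17. Bins 1 to 4 were thus B in both growing maps and bin 5, with DIAPH1 and the last PCDHG genes, was A. The scores were -0.25, -1.20, -1.24, -0.54 and 0.70 in OIS and -0.21, -1.20, -1.20, -0.61 and 0.54 in OIS-shA1. No protocadherin bin changed its compartment in any map, and every score was higher in OIS than in Grow. The scores of the chromosome shifted too, with 340 of 861 bins A in Grow and 426 in OIS. By percentile on chromosome 5 bin 1 fell from 50.8 to 46.6. Bins 2 and 3 rose from 13.5 to 26.5 and from 13.8 to 25.1, bin 4 from 39.6 to 41.6 and bin 5 from 66.4 to 70.4. The component followed GC content moderately (r = 0.43 in Grow over 861 bins of 1 map, a description).

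**Figure D1:**
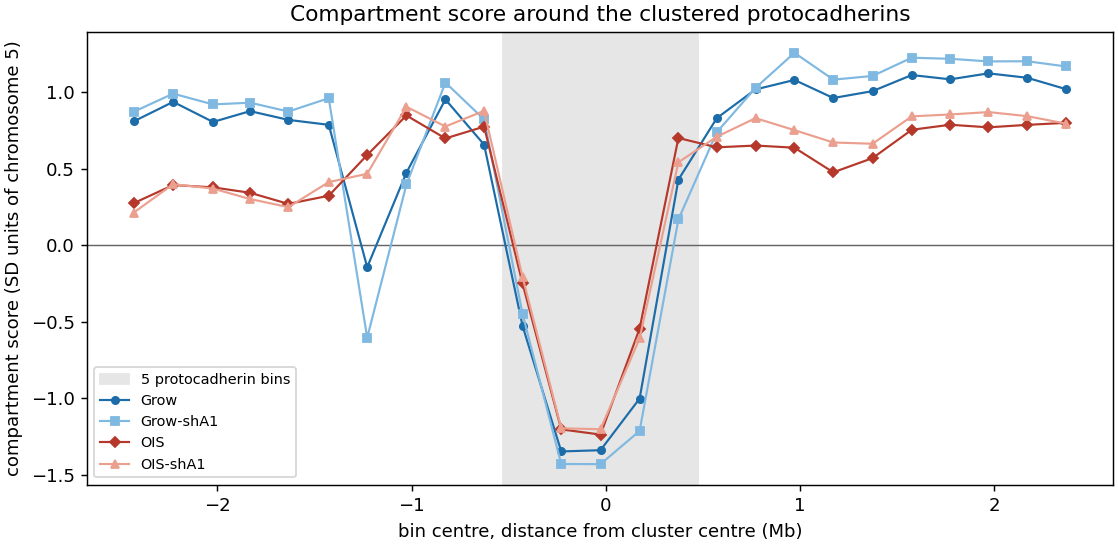
Compartment score (in SD units of chromosome 5) of the 25 bins against the distance of the bin centre from the centre of the protocadherin cluster in Mb, with 1 line per map and the 5 protocadherin bins shaded. Bins 2 and 3 reach about -1.2 or lower in every map, whereas the 10 downstream bins lie between 0.48 and 1.26 in all 4 maps.

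On both sides the chromosome was A. All 10 downstream bins were A in every map, from downstream 1 with the start of HDAC3, a histone deacetylase, past PCDH1, PCDH12, SPRY4, FGF1 and ARHGAP26 to NR3C1, the glucocorticoid receptor, in downstream 10. Upstream, 9 of 10 bins were A in Grow and Grow-shA1 and 10 of 10 in OIS. The exception was upstream 4 (chr5:139201272-139399901), which is largely filled by NRG2, a neuregulin ligand of ERBB receptors. Its score was -0.14 in Grow, -0.60 in Grow-shA1, 0.59 in OIS and 0.47 in OIS-shA1. By the sign of its score it was therefore B in both growing maps and A in both senescent maps, unlike the protocadherin bins. The cut at 0 moved too: 340 of 861 bins were A in Grow, 333 in Grow-shA1, 426 in OIS and 398 in OIS-shA1. By percentile on chromosome 5 upstream 4 went from 57.3 in Grow to 64.8 in OIS, and from 51.3 to 61.8 with shA1. How much of the switch is due to the moved cut was not tested. HBEGF, a growth factor of the EGF family, starts in upstream 2, which was A in all 4 maps.

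The protocadherin bins had few contacts with their surroundings. Local contact, the mean score of a bin with bins 1 to 10 positions away (about 2 Mb), was -1.39, -2.39, -2.32, -1.67 and -1.05 in bins 1 to 5 in Grow. In Grow-shA1 it was -1.27, -2.39, -2.41, -1.82 and -1.0. The PCDHA bin 2 and the PCDHB bin 3 had the lowest values, and values rose towards both ends of the cluster. All kept bins of the genome had a median of -0.016 (SD 0.63, n = 13604) in Grow, and only 0.088% of them were lower than bin 2.

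Taken as a window of 5 bins, the cluster had a mean local contact of -1.76 in Grow (SD over the 5 bins 0.58) and -1.78 in Grow-shA1 (SD 0.64). In OIS the mean was -2.19 (SD 0.96) and in OIS-shA1 -2.24 (SD 0.89). Among 12856 windows of 5 adjacent kept bins, 7 were lower in Grow, 5 in Grow-shA1, 2 in OIS and 1 in OIS-shA1. Windows lower in Grow than any that holds protocadherin genes lay in 2 places. The lowest window, at -2.27, was near the centromere of chromosome 21 (chr21:9774237-10771045) and held no gene start. The next, at -2.09, lay on chromosome 12 (chr12:55001835-56001052), where 14 of 19 genes code for olfactory receptors. That window is also made up largely of clustered gene copies, and its score was -2.37 in OIS.

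**Figure D2:**
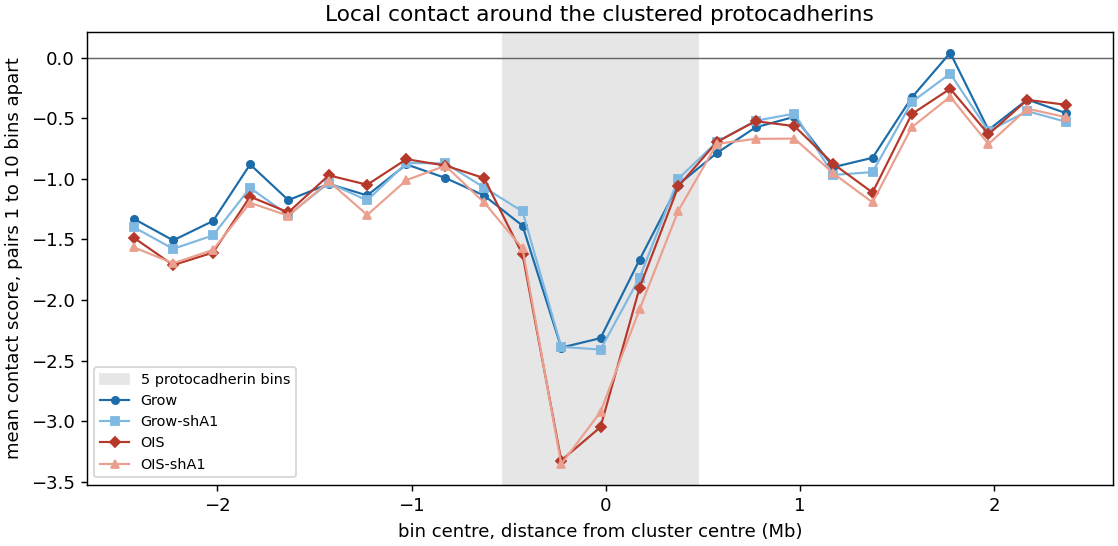
Local contact (mean score of a bin with bins 1 to 10 positions away, in score units) of the 25 bins against the distance of the bin centre from the cluster centre in Mb, with 1 line per map. The lines part most over bins 2 and 3, where both OIS maps lie between -3.36 and -2.92 and both Grow maps between -2.41 and -2.32, while on the flanks OIS minus Grow reaches at most -0.30, at downstream 7.

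In senescence local contact fell most over the PCDHA and PCDHB genes. In OIS it was -1.62, -3.33, -3.05, -1.90 and -1.06 in bins 1 to 5, so that bin 2 fell by 0.93 and bin 3 by 0.73 relative to Grow. Bins 1 and 4 fell by 0.24 and 0.23, and bin 5 differed by -0.014. The mean difference over the 5 bins was -0.43 (SD 0.39), and 18.9% of all windows of 5 bins fell further. 4 of 5 bins were lower by at least 0.2, against 40.5% of all bins, so the count says little, but only 0.99% of all bins fell by more than bin 2 and 4.62% by more than bin 3. Bins 1, 4 and 5 were ordinary, with 36.6%, 37.3% and 63.2% of all bins lower. The whole genome moved too: the median bin differed by -0.12 between these maps, and by 0.028 once each map was centred on the pairs shared by all 4, a shift of -0.15. With that centring the mean difference of the cluster was -0.28, and with scores limited to the 1st to 99th percentile of each map it was -0.22. Over local pairs up to 1 Mb only it was -0.19.

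The fall was also present with HMGA1 depletion. OIS-shA1 had local contacts of -1.57, -3.36, -2.92, -2.08 and -1.26, which differ from Grow-shA1 by -0.30, -0.97, -0.52, -0.26 and -0.26. The mean was -0.46 (SD 0.30), all 5 bins were lower by at least 0.2 (background 30.4%), and 4.36% of windows fell further. Only 0.15% of all bins fell by more than bin 2. The interaction was -0.033 (SD 0.17), from -0.25 in bin 5 to 0.22 in bin 3, and 39.0% of windows had a lower one. Over local pairs up to 1 Mb only it was -0.24.

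Over 10 bins on each side local contact differed less with shA1 than with RAS induction. OIS-shA1 minus OIS was -0.047 (SD 0.14), with 1 of 5 bins past 0.2 (bin 5, -0.20), where 37.8% of all bins differed by as much. Grow-shA1 minus Grow was -0.014 (SD 0.11), with 0 of 5 bins past 0.2 and a background of 6.45%. Over local pairs up to 1 Mb only they were -0.16 and 0.080, and Grow-shA1 minus Grow kept its sign in 7 of 13 alternatives.

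The low local contact came from pairs between the cluster and its A flanks. With the 10 upstream bins the 3 inner bins had a mean score of -2.38 in Grow, -2.54 in Grow-shA1, -3.32 in OIS and -3.34 in OIS-shA1, over 28 of 30 possible pairs. With the 10 downstream bins they had -2.72, -2.83, -3.37 and -3.38, over 26 of 30 pairs. On average both flanks were thus lower with the inner bins in senescence, with or without shA1. Upstream contact fell by 0.94 (0.80 with shA1) and downstream contact fell by 0.65 (0.56 with shA1). In OIS minus Grow the downstream fall rested on bins 2 and 3, at -1.13 and -0.93, while bin 4 differed by -0.055. With shA1 the 3 bins differed by -1.08, -0.46 and -0.22. Of the 60 pairs of inner and flank bins, Grow and Grow-shA1 listed all, OIS left out 4 and OIS-shA1 2, and these were left out of all 4 maps.

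The low end of the maps reached further down in senescence everywhere, not at the cluster alone. The 1st percentile of all pairs 1 to 10 bins apart was -2.92 in Grow, -3.05 in Grow-shA1, -3.95 in OIS and -3.87 in OIS-shA1. Of the listed pairs of inner and flank bins, 20 of 60 lay below it in Grow, 23 of 60 in Grow-shA1, 17 of 56 in OIS and 23 of 58 in OIS-shA1. Relative to the lowest scores of its own map the cluster was therefore placed much the same in senescence. With each map divided by its SD at the same distance, OIS minus Grow of the local contact was -0.13 and OIS-shA1 minus Grow-shA1 was -0.19.

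The 2 edge bins were less separated. Their score with the upstream bins was -1.26 in Grow, -1.27 in Grow-shA1, -1.45 in OIS and -1.66 in OIS-shA1. With the downstream bins it was -1.55, -1.46, -1.77 and -1.71. These means join unlike bins. In OIS minus Grow bin 1 differed by -0.36 with the upstream and by -0.46 with the downstream bins, and bin 5 by -0.032 and 0.024. With upstream 1, where SRA1 starts, bin 1, its direct neighbour, scored 0.45 in Grow and bin 5 scored -0.43. The inner bins had a mean of -1.86 with upstream 1.

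The upstream and downstream flanks met each other across the cluster more than either met the inner bins. Their 100 pairs had a mean of -0.70 in Grow, -0.64 in Grow-shA1, -0.64 in OIS and -0.67 in OIS-shA1. This is below the average for their distance but far above the scores of -2.38 and -2.72 of the inner bins in Grow, and its differences lay between -0.036 and 0.067. In the contact map the cluster therefore appears as a cross of low scores with filled corners.

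**Figure D3:**
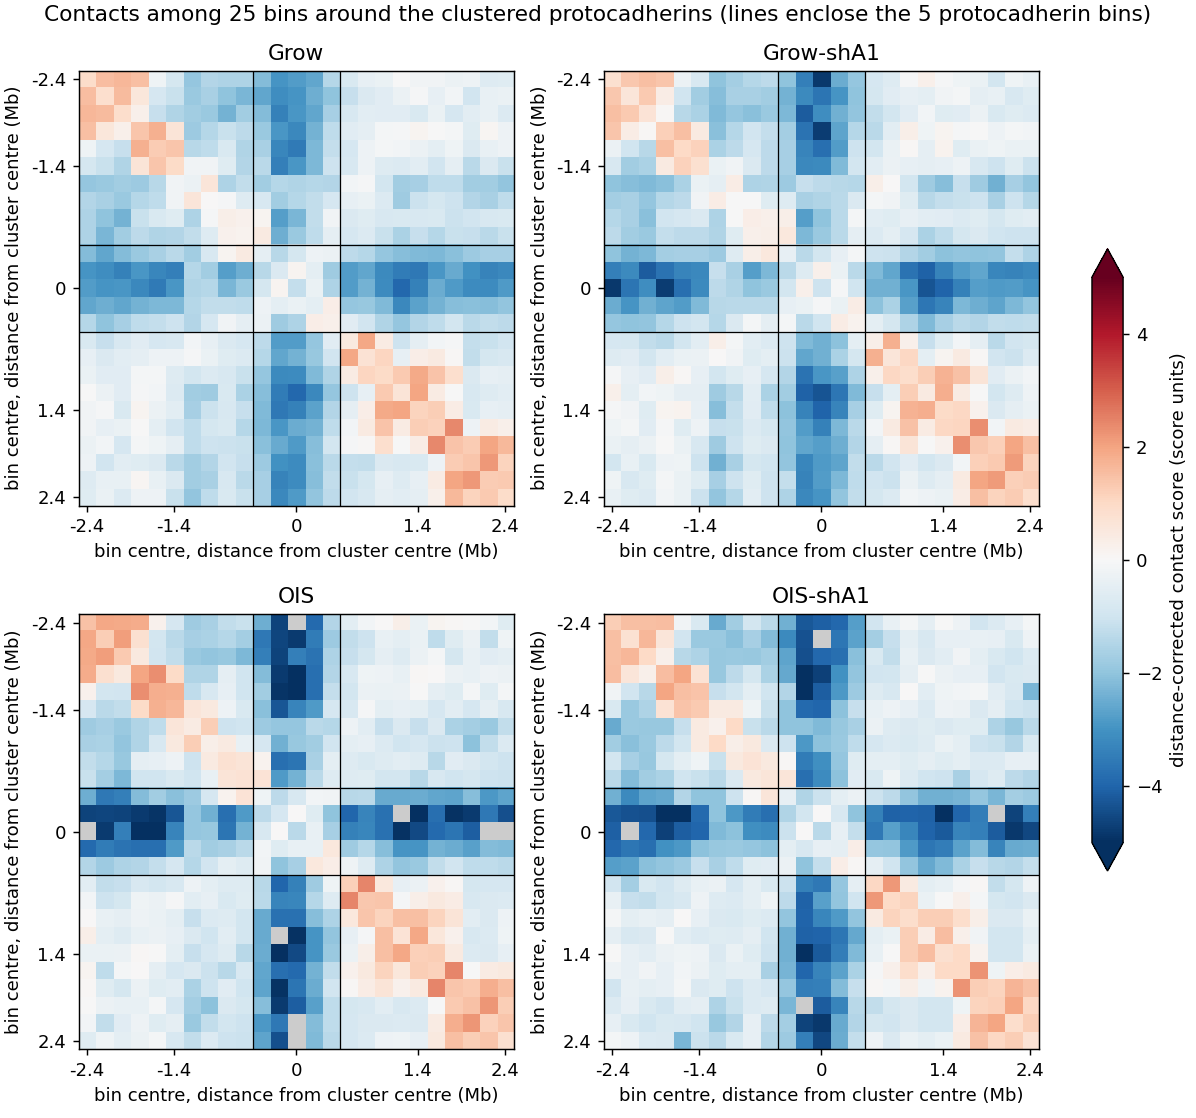
Contact scores (score units, colour scale from -5 to 5) of all pairs of the 25 bins in the 4 maps, both axes giving the distance of the bin centre from the cluster centre in Mb, with lines around the 5 protocadherin bins and unlisted pairs in grey. The inner bins form a dark cross against both flanks. On average it is deeper in OIS and OIS-shA1 than in Grow and Grow-shA1. The corners, where the flanks meet, have means between -0.70 and -0.64, and single pairs vary more widely.

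Single flank bins differed in how far they were separated. In Grow the inner bins scored -1.45 with upstream 4, the NRG2 bin, and -1.46 with upstream 3, which holds the starts of NRG2, PURA, IGIP and CYSTM1. These were the highest scores with any flank bin, and the lowest was -3.57 with downstream 4, where SPRY4, an inhibitor of receptor tyrosine kinase signalling, starts. In OIS minus Grow all 20 flank bins were lower with the inner bins, 19 of them by at least 0.2, with a median of -0.74. In OIS-shA1 minus Grow-shA1 19 of 20 were lower, all 19 by at least 0.2, with a median of -0.75. For any 3 adjacent B bins and an A bin equally far away, 55.3% of the means were lower by at least 0.2 in OIS minus Grow and 50.8% with shA1, with medians of -0.28 and -0.21. Over all bins these shares were 41.7% and 35.5%, so a fall of 0.2 is common at this range.

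The largest fall in OIS was with upstream 7 (SIL1, MATR3, PAIP2 and others), from -2.83 in Grow to -4.53. With shA1 the same pairs went from -3.68 to -4.35. With upstream 6, where STING1 and UBE2D2 start, the score was -3.00 in Grow, -3.30 in Grow-shA1, -4.60 in OIS and -3.99 in OIS-shA1. Each of these is a mean of 3 pairs, so the differences between flank bins rest on few values.

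For comparison, local pairs between an A and a B bin on all chromosomes had a mean of -0.74 in Grow, -0.82 in Grow-shA1, -0.93 in OIS and -0.98 in OIS-shA1 (44416 pairs). The inner bins were set against all 980 windows of 3 adjacent B bins with at least 20 pairs to A bins within 10 bins. Their score with such A bins was -2.49 in Grow, where the median window had -0.90 and 0.61% of windows were lower. In OIS it was -3.25, against a median of -1.0, with 1.33% of windows lower. The difference was -0.76 in OIS minus Grow, where the median window had -0.12 and 8.88% fell further, and -0.62 with shA1 (median -0.15, 12.4% further). The level of the protocadherin bins therefore lay farther out among B islands than their change did.

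Contacts among the 5 protocadherin bins were closer to average. Their 10 pairs had a mean of -0.64 in Grow (SD over pairs 0.72), -0.49 in Grow-shA1 (SD 0.63), -0.66 in OIS (SD 0.80) and -0.75 in OIS-shA1 (SD 0.72). The same pairs over all windows of 5 bins had a median of 0.38 in Grow, so the cluster was also less compact than most windows of its size, with 4.21% of windows lower.

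The PCDHA bin 2 and the PCDHB bin 3 scored 0.14 with each other in Grow, 0.24 in Grow-shA1, 0.019 in OIS and 0.013 in OIS-shA1. The PCDHG bins 4 and 5 scored 0.34, 0.38, 0.52 and 0.32 in the same order. These were the only pairs above 0, although neighbouring bins had a median of 0.71 over the genome in Grow. Bins 1 and 2, which divide the PCDHA cluster between them, scored -1.38 in Grow, -1.34 in Grow-shA1, -1.31 in OIS and -1.52 in OIS-shA1. The border between the mixed-gene bin 1 and the PCDHA bin 2 was thus the sharpest between neighbours in the cluster.

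Within the cluster bin 5 stood apart from the PCDHA and PCDHB bins. It scored -1.78 with bin 2 in Grow, -1.36 in Grow-shA1, -2.02 in OIS and -2.02 in OIS-shA1. With bin 3 it scored -1.53, -0.99, -1.68 and -1.19. With bin 1, at the far end and 4 bins away, it scored -0.28 in Grow, higher than with bins 2 or 3. Relative to distance, the ends of the region thus met each other more than bin 5 met the PCDHA and PCDHB bins between them.

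Contacts within the cluster did not share the fall seen with the flanks in OIS. OIS minus Grow was -0.014 (SD 0.14), with 5 of 10 pairs lower, and lay between -0.10 and 0.11 over 10 alternatives. Grow-shA1 minus Grow was 0.15 (SD 0.21), higher in 8 of 10 pairs, and 99.2% of all windows had a lower difference. Its largest parts were the pairs of bin 5 with bin 3 (0.54) and with bin 2 (0.43). OIS-shA1 minus Grow-shA1 was -0.26 (SD 0.19), lower in 10 of 10 pairs, and 23.3% of windows fell further.

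The interaction within the cluster was -0.24 (SD 0.11) and was negative in 10 of 10 pairs, from -0.42 for bins 2 and 5 to -0.054 for bins 3 and 5, with 5.83% of windows lower. The 10 pairs share 5 bins and are not independent. OIS-shA1 minus OIS was -0.091 (SD 0.23), lower in 8 of 10 pairs.

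**Figure D4:**
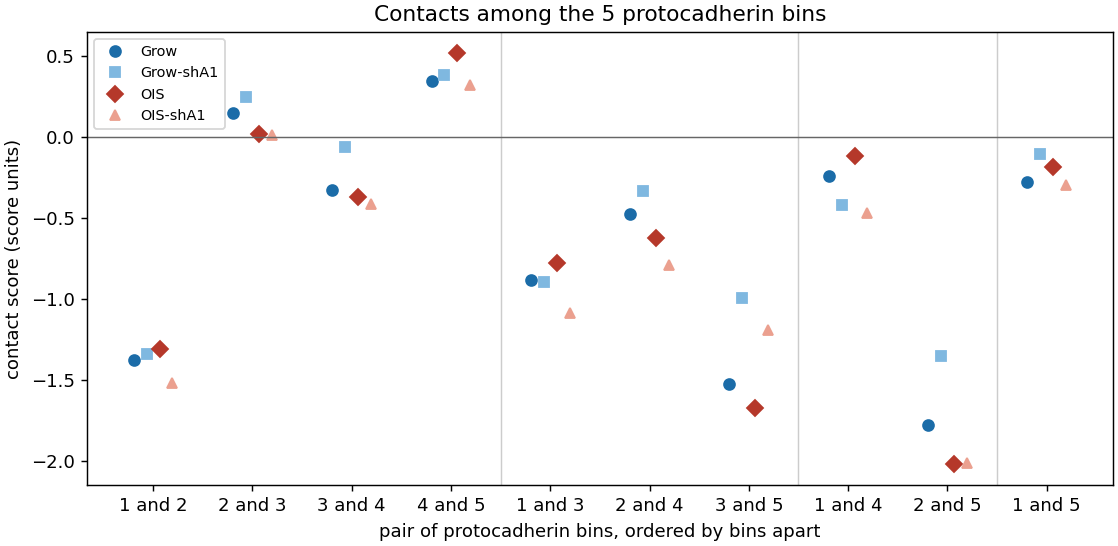
Contact score (score units) of each of the 10 pairs of protocadherin bins in the 4 maps, ordered by bins apart, with 1 marker per map. Only the pairs 2 and 3 and 4 and 5 lie above 0, and the markers of OIS-shA1 lie below those of Grow-shA1 in 10 of 10 pairs.

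Far from the cluster, beyond 10 bins, the PCDHA bin 2 and the PCDHB bin 3 met B bins of chromosome 5 and avoided A bins. The mean distal score with A bins was -0.047, -0.89, -0.75, -0.21 and 0.31 in bins 1 to 5 in Grow, and that with B bins was 0.22, 0.72, 0.74, 0.50 and 0.047. Bins 2 and 3 were the most one-sided and bin 5 was on the other side. The median of all bins was -0.11 with A bins and 0.24 with B bins, and 1.98%, 7.43% and 43.1% of all bins lay below bins 2, 3 and 4 with A bins, so bin 4 was ordinary. As a window the cluster was ordinary too, with 29.6% of windows lower for A bins and 65.3% for B bins. The bins 2 and 3 shared their distal partners: across 525 target bins their Grow scores correlated with r = 0.94. Bins 2 and 5 had r = -0.12 over 447 targets. Across targets the score of bin 2 went against the compartment score of the target (r = -0.74 over 586 targets), and that of bin 5 went slightly with it (r = 0.32 over 619). The A and B classes and the compartment score were computed from these same Grow scores. A lean of B bins towards B targets is therefore partly built in, and the values by class and the r with the compartment score do not test it. All r describe targets of 1 map that neighbour each other and are given without a test.

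Distal contact with A bins was -0.32 on average in Grow (SD over bins 0.49), -0.37 in Grow-shA1 (SD 0.48), -0.45 in OIS (SD 0.57) and -0.47 in OIS-shA1 (SD 0.50). The difference OIS minus Grow was -0.13 (SD 0.082). 2 of 5 bins, 2 and 3, were lower by at least 0.2 (background 25.7%). OIS-shA1 minus Grow-shA1 was -0.11 (SD 0.086), with 1 of 5 bins, bin 2, lower by at least 0.2 (background 20.5%). OIS-shA1 minus OIS was -0.025, with 0 of 5 bins past 0.2 (background 12.9%), and Grow-shA1 minus Grow was -0.050, with 0 of 5 (background 4.2%). 33.1% of all windows fell further in either RAS comparison.

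Bins 2 and 3 listed fewer of their distal A pairs than of their distal B pairs. For A bins the share was 76.5% and 75% in Grow and 62.4% and 64.5% in OIS-shA1, whereas for B bins it was between 95.0% and 98.3% over the 4 maps. Only pairs listed in all 4 maps entered the means.

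Distal contact with B bins was 0.45 in Grow (SD 0.31), 0.44 in Grow-shA1 (SD 0.27), 0.31 in OIS (SD 0.33) and 0.24 in OIS-shA1 (SD 0.29). OIS minus Grow was -0.13 (SD 0.056) and lower in 5 of 5 bins, with 1 of 5, bin 4, past 0.2 (background 26.4%). OIS-shA1 minus Grow-shA1 was -0.21 (SD 0.063), also lower in 5 of 5, with bins 4 and 5 past 0.2 (background 23.2%). The median of all bins differed by -0.087 and -0.065 in the same comparisons, and 38.0% and 18.9% of windows fell further. With common centring the cluster differed by -0.084 and -0.17. OIS-shA1 minus OIS was -0.077 (SD 0.060), with 0 of 5 past 0.2 (background 12.4%), and Grow-shA1 minus Grow was -0.0019 (SD 0.066), with 0 of 5 (background 4.74%). The interaction was -0.075 (SD 0.013), negative in 5 of 5 bins, and 10.8% of windows were lower. The 5 bins share most of their target bins. The interaction was -0.022 with scores divided by the SD at the same distance and -0.13 over pairs 2 to 50 Mb apart.

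By distance, the score of the inner bins with B bins was highest at 20 to 50 Mb. There it was 1.05 in Grow, 1.06 in Grow-shA1, 0.78 in OIS and 0.69 in OIS-shA1, over 481 pairs. At 2 to 5 Mb it was 0.10, 0.20, 0.033 and -0.17, while with A bins it was -1.56, -1.57, -1.99 and -2.06. The avoidance of A bins thus continued beyond the local range, and the score with A bins rose with distance, to -0.19 beyond 50 Mb in Grow. These means rest on pairs listed in every map. Beyond 50 Mb the 3 inner bins had 109 such pairs with A bins, whereas the 2 edge bins had 205. Since unlisted pairs have no score, whether the avoidance itself weakened with distance cannot be told.

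Chromosome 5 was then divided into blocks of 25 bins, 35 of which hold distal targets. In Grow the 5 bins scored above 0 with 23 of 25 blocks that are at most 50% A and with 2 of 10 that are more than 50% A. The A and B classes came from the Grow scores themselves, so this split is partly built in. Block 33 (chr5:162599754-167601358, 24.6 Mb downstream) had the highest score, 1.55 in Grow, 1.53 in Grow-shA1, 1.39 in OIS and 1.29 in OIS-shA1. It is 4% A and holds 5 gene starts, among them TENM2, a teneurin of neuronal contacts, and HMMR, a receptor for hyaluronan. The third highest, block 20 (chr5:97604704-102599748), with RGMB, CHD1 and ST8SIA4, had 0.81.

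The lowest scores were with 3 blocks within 20 Mb. Block 27 (chr5:132598434-137595948), where 44 genes start, among them TGFBI and TCF7, had -0.50 in Grow. Block 25 (chr5:122600172-127599661), with LMNB1, which codes for lamin B1, had -0.41. Block 29 (chr5:142600086-147601752), with several SPINK protease inhibitor genes, had -0.18. The flank bins at its near end, where NR3C1 lies, did not enter this score. The scores are relative to the average at each distance, but for these bins they still varied with distance. In Grow the 5 bins scored -1.25 with A bins and -0.19 with B bins at 2 to 5 Mb. Beyond 50 Mb they scored -0.039 and 0.22. The part of nearness in the low blocks was not tested.

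In OIS minus Grow the scores fell in 24 of 35 blocks, and in 32 of 35 with shA1. The largest falls were in 3 blocks upstream, with 10, 2 and 18 gene starts. Block 20 went from 0.81 to 0.30 and block 21 (chr5:102599749-107597457), with NUDT12 and EFNA5 only, from 0.57 to 0.064. Block 23 (chr5:112600851-117604012) went from 0.67 to 0.36. With shA1 the same blocks went from 0.75 to 0.31, from 0.68 to 0.12 and from 0.76 to 0.31. They fell by 0.51, 0.50 and 0.31 without the hairpin and fell by 0.44, 0.56 and 0.44 with it. The largest rise was 0.12, in block 30 (chr5:147601753-152601592), which holds PDGFRB and SPARC, followed by 0.071 in block 11 (chr5:52605248-57608182) and 0.047 in block 31 (chr5:152601593-157599041). With shA1 these 3 blocks differed by -0.082, -0.047 and -0.086. The rises without the hairpin lay mainly in the edge bins, at 0.23, 0.11 and 0.17 in the same order. The inner bins differed by 0.037, -0.17 and -0.036. Block 11 rests on 26 pairs, 20.8% of those possible.

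**Figure D5:**
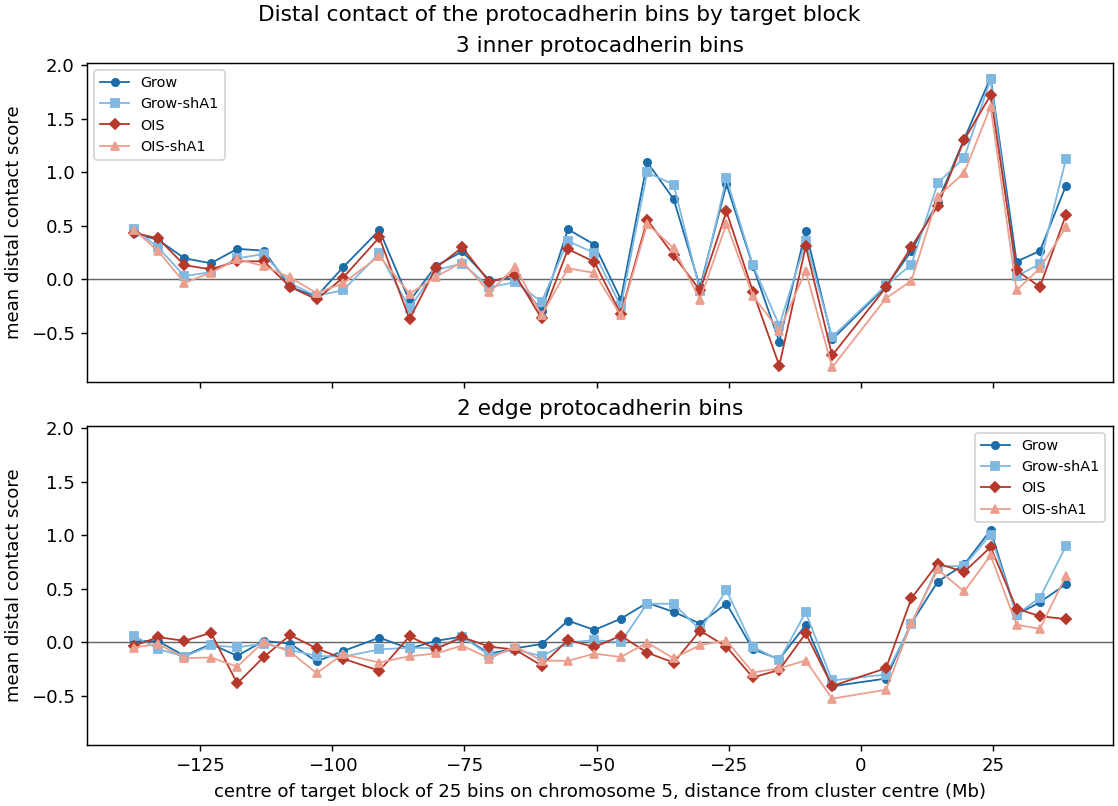
Mean distal contact score (score units) of the 3 inner bins (top) and the 2 edge bins (bottom) with each of 35 target blocks of 25 bins, against the distance of the block centre from the cluster centre in Mb, with 1 line per map. The inner bins peak at 1.89 in Grow with the block 24.6 Mb downstream, where the edge bins reach 1.05, and the lines of both OIS maps drop below those of both Grow maps at 40.4 and 35.4 Mb upstream.

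Of 20 target genes on chromosome 5, FST and TERT had no pair with the cluster listed in all 4 maps. The other 18 had 2 to 5 pairs each, so their values are rough. 4 cadherin genes lie in B bins, and in Grow the inner bins scored 0.53 with CDH18, 0.53 with CDH10, 0.13 with CDH12 and 0.069 with CDH9. CDH6, in an A bin, had pairs with the edge bins only (-0.030). With SPARC, a matrix protein of fibroblasts in an A bin, the inner bins scored -0.048 in Grow and -0.83 in OIS, while the edge bins scored 1.06 and 1.27. With MEF2C, a transcription factor, the 5 bins scored 0.81 in Grow, 0.43 in Grow-shA1, 0.14 in OIS and 0.40 in OIS-shA1. With EGR1, an early response gene in the bin before upstream 10, they scored -1.41, -1.54, -1.73 and -2.14. For the other genes the 5 bins scored 0.40 in Grow with CSF2, a cytokine, 0.31 with FBN2, a fibrillin, and 0.067 with VCAN, a matrix proteoglycan. They scored -0.042 with CCNB1, a cyclin of mitosis, -0.18 with LOX, which crosslinks collagen, -0.26 with NIPBL, a cohesin loader, and -0.39 with TGFBI. The lowest of these were -0.51 with LMNB1, -0.60 with IL4, a cytokine, and -0.92 with PDGFRB, a growth factor receptor. In OIS the same 10 genes had scores between -0.75 (IL4) and 0.42 (CSF2).

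The separation from the neighbourhood was not shared by protocadherin genes outside the clusters. The 10 such genes fall into 9 bins, since PCDH1 and PCDH12 both start in downstream 2. Local contact in Grow was 1.35 for PCDH15, 0.85 for PCDH10, 0.66 for PCDH7, 0.65 for PCDH9 and 0.54 for PCDH17. It was -0.081 for PCDH19, -0.18 for PCDH11X, -0.35 for PCDH20 and -0.58 for the PCDH1 and PCDH12 bin. None was as low as any of the 5 cluster bins, the highest of which was at -1.05. In OIS minus Grow 6 of the 9 bins fell by at least 0.2 (background 40.5%), with a median of -0.36, and in OIS-shA1 minus Grow-shA1 1 of 9 (background 30.4%), with a median of -0.10.

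The 5 bins outside the region whose changes were most like the mean of the protocadherin bins were found over 12 values, the 4 comparisons of local, distal A and distal B contact. The nearest held CSF2, P4HA2 and PDLIM4 (chr5:131405194-131599734, distance 0.19 in score units). The next 2 (chr3:50991260-51199778 and chr3:50798942-50991259) are neighbours in DOCK3, with local contacts of -1.51 and -1.56 in Grow. The others lay on chromosome 20 (chr20:37999761-38200471), with no gene start, and on chromosome 22 (chr22:21205959-21399680), with PI4KA and CRKL. 3 of these 5 bins were B and 2 were A, so a like change did not require the same compartment.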

How the data were processed

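Hi-C pair scores were analysed for 4 maps of IMR90 cells. Per the study's methods the authors used HiC-Pro on the hg19 genome, filtered artefacts and duplicate reads, binned contacts at 200 kb with edges at HindIII sites, balanced the matrices by iterative correction and corrected them for distance. Each deposited score is 1 value per pair of bins, with the replicates of a condition pooled, and read counts are not given, so neither counting error nor an interval could be computed. The Grow and OIS maps belong to no sample of the series.

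Bins with at least 50% of their pairs in every map were kept (13606 of 14310 on the autosomes and X). Means were taken over pairs listed in all 4 maps, with python 3.11.15 and numpy 2.4.6. Compartment scores came from the first principal component of each chromosome in each map, oriented by gene starts. The A and B classes of distal targets were those of Grow. Genes came from GENCODE lifted to GRCh37. The measures were tested on simulated maps. An SD is over bins or pairs, not over replicates. Alternatives changed centring, scaling, extreme values, pairs used, distances, compartments and members.

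The bins, gene lists and rules were chosen with earlier results of these data known. The text names 6 protocadherin genes, 14 flank genes, 20 target genes, 10 other protocadherins, the 3 highest and lowest blocks in Grow and the 3 with the largest rise and fall, by rule, except 1 block that is not reported here. Other genes are named for orientation. Windows of B bins, the low end of the maps and single flank bins with their background were chosen after values were seen.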

Additional observations from a re-analysis of the deposited data

Results flagged for a closer look

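Protocadherin bin 4, with the last PCDHB and the first PCDHG genes, moved in opposite directions with and without the hairpin in its distal contact with A bins. OIS minus Grow was -0.085 and OIS-shA1 minus Grow-shA1 was 0.031, a difference of 0.12 between them. Its scores were -0.21 in Grow, -0.38 in Grow-shA1, -0.29 in OIS and -0.35 in OIS-shA1, so the lowest of the 4 was that of Grow-shA1. The difference was not tested, since there was 1 map per condition, and neither value reached 0.2.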

How the results depend on the processing

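Over 24 results and 301 alternative values, 294 stayed within 1 SD over the members and 7 moved by more. That SD is a spread between unlike bins, from 0.39 for local contact in OIS minus Grow to 0.013 for the interaction with distal B bins. The count therefore depends on it and does not measure robustness. No result of at least 0.2 turned its sign, whereas several smaller ones did. Local contact in Grow-shA1 minus Grow kept its sign in 7 of 13 alternatives (-0.079 to 0.080) and its interaction in 10 of 13 (-0.24 to 0.051). Distal contact with A bins kept it in 13 of 15 for OIS-shA1 minus OIS and in 14 of 15 for Grow-shA1 minus Grow and for the interaction, and distal contact with B bins in 9 of 15 for Grow-shA1 minus Grow (-0.036 to 0.049). Within the cluster OIS minus Grow kept it in 6 of 10 (-0.10 to 0.11) and OIS-shA1 minus OIS in 9 of 10. With local pairs up to 1 Mb the interaction of local contact was -0.24. With scores divided by the SD at the same distance, distal contact with B bins differed by -0.25 in OIS minus Grow and by -0.27 in OIS-shA1 minus Grow-shA1, and its interaction was -0.022. With distal pairs from 2 to 50 Mb OIS-shA1 minus Grow-shA1 was -0.30 and the interaction -0.13, and with unlisted pairs as 0 the interaction was -0.062. The causes were not tested. Local contact in OIS minus Grow lay between -0.63 and -0.13 over 13 alternatives and in OIS-shA1 minus Grow-shA1 between -0.58 and -0.19, lower in each. Grow-shA1 minus Grow within the cluster stayed between 0.059 and 0.25 over 10 alternatives. The settings with the 3 inner bins only, and with pairs outside the 5 bins only, were chosen after seeing the data.

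No paired analysis was possible because each map pools the replicates of its condition. For the same reason no replicate was left out, and the members left out in turn were bins. The files give no reads per pair, so a single score has no known error.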
